A study of Mus musculus with 32 samples.

Results

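The transcription regulators that switch on motile cilia and multiciliated cells were examined in brain tumors of the GMYC and GTML mouse models. The group holds 10 genes, Gmnc, Mcidas, Ccno, Myb, Trp73, Foxj1, Rfx1, Rfx2, Rfx3 and Rfx4, chosen by symbol out of 37310 genes counted. GMYC tumors (n = 6) arose in mice carrying Glt1-tTA and TRE-MYC, in which Glt1-expressing hindbrain cells make a transactivator that drives human MYC, and GTML tumors (n = 8) arose in the corresponding model with MYCN in its place. In both models the transgene is on unless doxycycline is given, the host is immunocompetent, and total RNA came from fresh-frozen biopsies sequenced on an Ion Torrent platform. Neither the age of the mouse nor the share of tumor cells is given for any biopsy in the labels. Knockout and drug-treated cell lines of the series were not analysed here.

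A multiciliated cell makes many centrioles, docks them at its surface and grows a motile cilium from each. Geminin coiled-coil family members start the program: Gmnc (GEMC1) acts upstream of Mcidas (multicilin), and both work with E2F4 or E2F5 on the genes for centriole amplification. Myb, Trp73 (p73) and Ccno (cyclin O) act in the same early steps, whereas Foxj1 and the RFX factors drive the genes of the motile axoneme. In the brain this program is best known from ependymal and choroid plexus cells. Some of its regulators also have other roles, such as Myb in blood progenitors and Rfx3 and Rfx4 in the primary cilia and development of neural cells.

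Tumors held between 4602294 and 7279811 counts, with at least 6218378 in GMYC and at most 6317404 in GTML tumors, so that genes with few reads are measured less precisely in GTML tumors. The models were checked by their drivers. Reads on Myc lay between 33.3 and 165 CPM (counts scaled to the size of the library, with TMM normalization) in GMYC and between 2.59 and 8.66 in GTML tumors, with GMYC tumor 6 lowest in its model, and reads on Mycn lay between 7.63 and 34.3 CPM in GMYC and between 119 and 191 in GTML tumors. Otx2, a gene of this type of medulloblastoma, was at 237 CPM or more in all 14 tumors. Small nucleolar RNAs took more than 0.3% of counts in part of the tumors (GMYC tumors 1 to 4 and GTML tumors 1 and 2) and less in the others, and the study's methods speak of GTML tumors sequenced earlier and of new ones. The labels name no sequencing run, so the part of a run in the differences between the models cannot be told. The small nucleolar RNA split followed the order of the deposited samples. Each side held both models, with 4 GMYC and 2 GTML tumors where the share was high and 2 and 6 where it was low. The small nucleolar RNA sides were seen in the counts, and values within them are given beside the pooled ones. The highest count of any Y-linked gene used was 642 to 938 in GMYC tumors and 361 to 719 in GTML tumors 1, 4, 6 and 7. In GTML tumors 2, 3, 5 and 8 it was 3 to 8. Sex, as read from these genes, is therefore partly confounded with model. GTML tumors 2 and 3 stood apart in many of the genes described here, so values without them are given for part of these genes. GTML tumor 2 had Gli1, a target of hedgehog signalling, at 14.1 CPM and the photoreceptor factor Crx at 97.4 CPM, where the other GTML tumors had at most 3.58 CPM of Gli1 and at least 297 CPM of Crx. The study's own comparison of the models left out a GTML tumor, which the labels do not name. The paper describes an outlier GTML tumor that also had a signature like the hedgehog (SHH) subgroup of medulloblastoma. Its comparison kept the tumors classified with the subgroup that the models resemble. Whether GTML tumor 2 is that outlier was not tested. All 8 GTML tumors are used here in every main test. Without GTML tumor 2 the regulators called were Foxj1, Myb and Rfx1. The labels do not say that each biopsy came from a separate mouse, and p-values then measure the spread between these biopsies.

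RFX factors bind a DNA element called the X-box, of which a part, not the whole, was searched for by its letters. The stretches before the start sites of 3 of the regulators that held these letters are shown. They were chosen because their genes moved together or differed between the models. RefSeq start sites of the GRCm38.p6 build were available for 9 of the 10 genes, in 12 windows of the 250 bases before the start. The letters GTTGCCA and GTTGCTA were searched on both strands, where they read TGGCAAC and TAGCAAC, and the motifs do not overlap each other in the windows below. The letters CACGTG (E-box) and TTCCCGCC (E2F site), held by 6.02% and 1.86% of all windows, were searched too. Among the regulators, TTCCCGCC was found in a window of Trp73 and CACGTG in no window. GTTGCCA was present in the windows of Mcidas (chr13:112993618-112993867, plus strand) and Ccno (chr13:112987552-112987801, plus strand), which are neighbouring genes. GTTGCTA was present on the opposite strand at the start of Rfx1 (chr8:84066586-84066835, plus strand) and in a window of Rfx4. The sequences are written 5′ to 3′ and the capitals mark the motif.
Mcidas: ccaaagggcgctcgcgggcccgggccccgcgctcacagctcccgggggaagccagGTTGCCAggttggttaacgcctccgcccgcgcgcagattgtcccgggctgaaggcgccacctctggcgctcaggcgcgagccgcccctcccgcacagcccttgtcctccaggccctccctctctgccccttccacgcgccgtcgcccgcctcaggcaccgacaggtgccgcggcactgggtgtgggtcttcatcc
Ccno: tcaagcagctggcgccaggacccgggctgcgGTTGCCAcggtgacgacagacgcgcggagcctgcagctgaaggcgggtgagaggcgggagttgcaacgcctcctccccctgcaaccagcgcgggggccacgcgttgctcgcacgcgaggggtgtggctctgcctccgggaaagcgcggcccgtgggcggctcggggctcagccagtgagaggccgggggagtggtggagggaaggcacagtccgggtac
Rfx1: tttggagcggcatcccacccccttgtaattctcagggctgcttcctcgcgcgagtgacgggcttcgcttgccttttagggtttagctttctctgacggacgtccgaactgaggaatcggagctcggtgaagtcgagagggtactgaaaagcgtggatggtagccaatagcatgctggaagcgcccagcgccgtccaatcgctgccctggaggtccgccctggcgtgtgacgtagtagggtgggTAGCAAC
Of all 32851 windows of this length, 3.66% held GTTGCCA and 3.16% held GTTGCTA, and 6.47% held either. A match of letters is a description and does not show that a factor binds there.

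Among the regulators, 9 had enough reads for the test, and 4 of them passed it at an adjusted p under 0.05 (edgeR's quasi-likelihood test with Benjamini-Hochberg adjustment over the 21024 genes tested). Rfx1, Foxj1 and Rfx2 were higher in GTML tumors and Myb was lower. Of all genes tested, 21.2% passed, 11.5% as higher in GTML tumors and 9.71% as lower. The median log2 fold change (GTML over GMYC) was 0.23 over the 9 regulators and 0.036 over all genes. At the stricter thresholds of the study, an adjusted p under 0.01 and a change beyond 1 on the log2 scale, Rfx1 alone passed, beside 3.22% of all genes. Rfx1 missed these thresholds in 7 of the 14 fits that left out 1 tumor (adjusted p up to 0.0197, without GMYC tumor 3), and the 676 genes past them became 114 without GMYC tumor 3 and 1624 without GTML tumor 2. In bulk RNA, fewer cells of a type and less RNA per cell cannot be told apart.

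**Figure D1:**
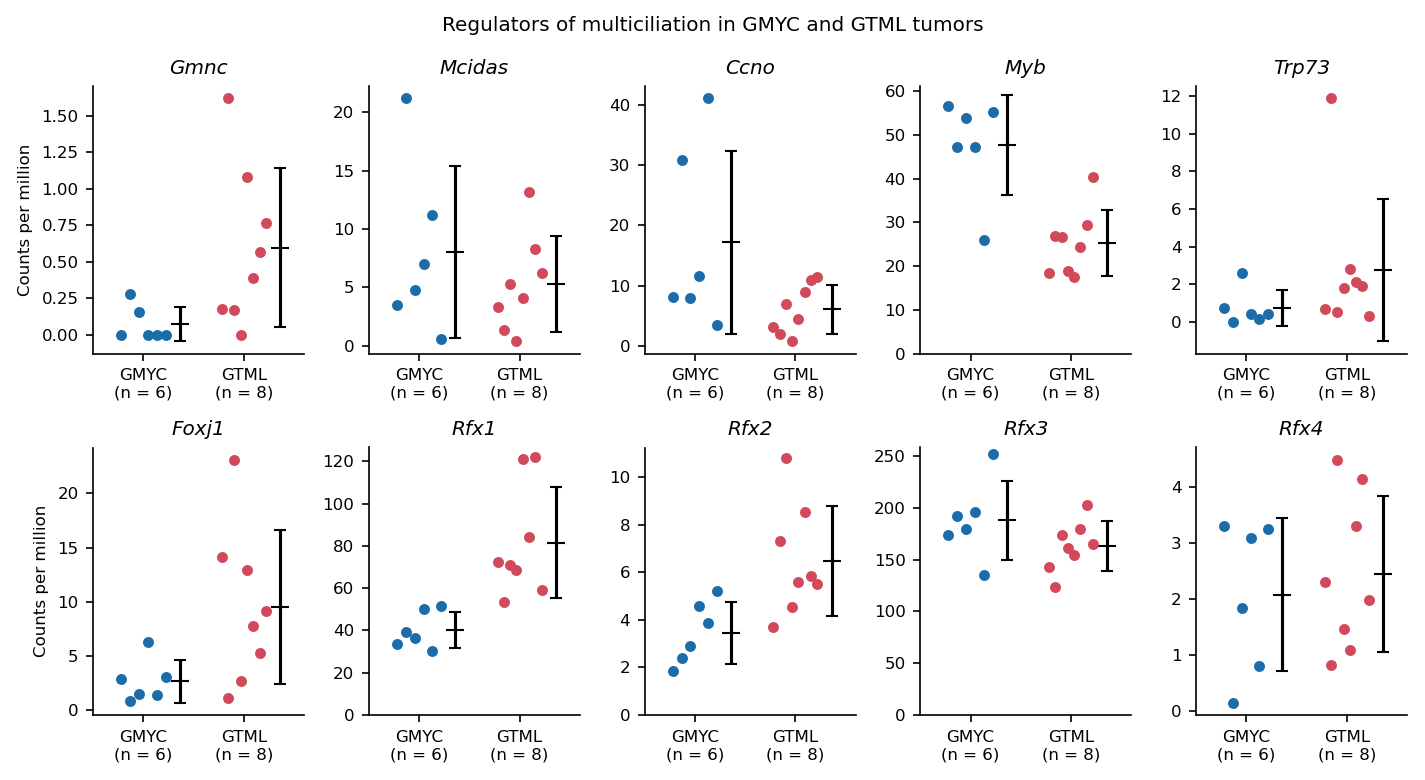
Normalized level (CPM, linear axes) of each regulator in every tumor, with 1 point per tumor and the mean ± SD beside it (6 GMYC and 8 GTML tumors). Rfx1 separates the models, whereas Mcidas and Ccno are spread over a wide range within each model, and Trp73 stands out in GTML tumor 2 at 11.9 CPM.

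Compared per length, as CPM per kilobase of annotated exon (RPKM), the regulators covered a wide range of levels. In GMYC tumors the order of the means ran from Rfx3 (17 RPKM) over Ccno (6.72), Rfx1 (6.26), Myb (5.34), Mcidas (3.38) and Foxj1 (1.02) to Rfx2 (0.474), Rfx4 (0.438), Trp73 (0.129) and Gmnc (0.0126). In GTML tumors it ran from Rfx3 (14.8 RPKM) over Rfx1 (12.7), Foxj1 (3.63), Myb (2.84), Ccno (2.38) and Mcidas (2.21) to Rfx2 (0.885), Rfx4 (0.517), Trp73 (0.497) and Gmnc (0.104). Neighbours in these orders overlapped in their mean ± SD, except Rfx3 and Ccno in GMYC tumors and Rfx1 and Foxj1 in GTML tumors. Rfx3 was the most abundant and Gmnc the least abundant regulator in both models.

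Gmnc, which starts the program, had between 0 and 2 reads in GMYC tumors and between 0 and 10 in GTML tumors. It was read in 2 of 6 GMYC tumors and in 7 of 8 GTML tumors. A count of 0, as in GMYC tumors 1, 4, 5 and 6 and GTML tumor 4, allows a level of up to 0.544 CPM in the shallowest of them. The 27 reads over all GTML tumors against 3 over all GMYC tumors gave, relative to total counts, a ratio of 8.29 (95% exact interval 2.55 to 42.7, counting error only). The difference of the mean log2 CPM was 1.04, with GTML higher (exact two-sided permutation test, p = 0.0147). GTML tumor 2, with 10 of the 27 reads, was the highest, and 5 GTML tumors lay above every GMYC tumor. The difference in Gmnc without GTML tumor 2 was not tested.

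Mcidas, which activates the genes of centriole amplification with E2F4 and E2F5, reached 0.565, 5.86 and 21.2 CPM (lowest, median and highest) in GMYC tumors and 0.364, 4.7 and 13.2 CPM in GTML tumors. The models overlapped over most of their ranges, with the highest value in GMYC tumor 2 and the lowest in GTML tumor 4, just under GMYC tumor 6. Its log2 fold change was -0.61 (SE 0.663, adjusted p = 0.519 by edgeR) and was -0.02 without GMYC tumor 2. Ccno, the cyclin needed for making many centrioles, stood at 3.39, 9.87 and 41.1 CPM in GMYC tumors and at 0.728, 5.75 and 11.4 CPM in GTML tumors. GMYC tumors 5 and 2 were far above all others, and 3 GTML tumors lay below every GMYC tumor. Its log2 fold change of -1.49 (SE 0.588) missed the threshold (adjusted p = 0.0781 by edgeR). It passed with DESeq2 (adjusted p = 0.0462) and without GMYC tumor 6 (adjusted p = 0.0497 by edgeR).

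Mcidas and Ccno followed each other from tumor to tumor. Among 36 pairs of regulators, theirs was the only pair that passed over all 14 tumors (Pearson r = 0.881, permutation p = 4e-05, adjusted p = 0.00144; Spearman's rank correlation 0.89, p = 7e-05, adjusted p = 0.00252). Without the 2 tumors farthest from the median of Mcidas, r was 0.858. Within GMYC tumors r was 0.917 (rank correlation 0.886; exact p = 0.0111 and 0.0333, adjusted 0.2 and 0.4), and within GTML tumors it was 0.951 (rank correlation 0.905; exact p = 0.000496 and 0.00456, adjusted 0.0179 and 0.164). Where the small nucleolar RNA share was high, r was 0.953 (rank correlation 0.943; exact p = 0.00833 and 0.0167, adjusted 0.15 and 0.2), and where it was low, r was 0.85 (rank correlation 0.833; exact p = 0.00141 and 0.0154, adjusted 0.0508 and 0.196). Of 15332 other protein-coding genes, Ccno was the gene most like Mcidas, and Mcidas the gene most like Ccno. Cdc20b, which lies next to Mcidas on chromosome 13 and carries a microRNA of multiciliated cells, was number 10 in likeness to Ccno (r = 0.796) and number 71 in likeness to Mcidas (r = 0.69). Cdc20b itself was at 2.6 to 12.4 CPM in GMYC and 1.64 to 12.2 CPM in GTML tumors (log2 fold change -0.30, SE 0.517, adjusted p = 0.698 by edgeR). The exons of Mcidas and Ccno overlap no other gene in the annotation used.

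Myb, which acts downstream of multicilin in airway cells and is a regulator of blood progenitors, was lower in GTML tumors. It stood at 25.9, 50.6 and 56.7 CPM in GMYC tumors and at 17.6, 25.6 and 40.4 CPM in GTML tumors. The models overlapped through GMYC tumor 5, the lowest of its model, and GTML tumor 8, the highest of its model. Between the models Myb had a log2 fold change of -0.91 (SE 0.212, adjusted p = 0.0105 by edgeR). Myb was the only regulator that passed under all 23 alternatives of the fit, with adjusted p between 0.00104 and 0.0425. Within the small nucleolar RNA sides few genes could be called: 0.0106% of all genes passed where the share was high and 13.3% where it was low. Myb passed in neither (log2 fold change -1.17, adjusted p = 0.208 where the share was high, and -0.64, adjusted p = 0.226 where it was low, both by edgeR). The protein-coding genes most like it over the 14 tumors were the globin genes Hbb-bs (r = 0.942), Hbb-bt (r = 0.941) and Hba-a1 (r = 0.923), chosen as the highest of 15332 and given as a description. Within the models, from the same tumors, r for Hbb-bs was 0.923 over 6 GMYC and 0.821 over 8 GTML tumors. Hbb-bs was at 12.2 to 45.3 CPM in GMYC and 3.01 to 14.4 CPM in GTML tumors and was lower in GTML tumors (log2 fold change -1.78, SE 0.362, adjusted p = 0.0065 by edgeR). Globin genes have near-identical copies, between which reads cannot be assigned with certainty.

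Of 13 blood and immune markers, 8 could be tested and 3 passed (37.5%, against 21.2% of all genes). Hba-a1 and Hbb-bs were lower in GTML tumors and the B-cell gene Cd79a was higher. Alas2, which makes heme in red cell precursors, had a log2 fold change of 0.51 (adjusted p = 0.276 by edgeR) and reached 121 CPM. Ptprc, which encodes the leukocyte antigen CD45, was at 16.8 to 48.3 CPM in GMYC and 8.98 to 99 CPM in GTML tumors (log2 fold change 0.03, adjusted p = 0.97 by edgeR), and the myeloid progenitor genes Elane and Mpo were at most 0.281 and 1.13 CPM in any tumor. Summed over the list, the markers were at 155 to 241 CPM in GMYC and 105 to 320 CPM in GTML tumors. The part of blood cells in the level of Myb was not tested. An antisense gene covers 6.26% of the exon bases of Myb, and how strand was handled in counting is not stated. The relatives of Myb gave no call, with Mybl1 at a log2 fold change of 0.50 (adjusted p = 0.243) and Mybl2 at 0.21 (adjusted p = 0.408, both by edgeR).

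Trp73, the p53 relative that acts on Foxj1 and other cilium genes, had few reads. It was at 0, 0.413 and 2.6 CPM in GMYC tumors and at 0.305, 1.85 and 11.9 CPM in GTML tumors. A single tumor, GTML tumor 2, held 73 reads, and the next highest GTML tumor was at 2.8 CPM. The log2 fold change of 1.92 (SE 0.863) did not pass (adjusted p = 0.115 by edgeR) and was 0.98 without GTML tumor 2 (adjusted p = 0.309). Without GMYC tumor 3, the highest of its model, it was 2.93 and passed (adjusted p = 0.0482). Trp73os, on the opposite strand, covers 5.06% of its exon bases.

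Foxj1, the forkhead factor that drives the motile axoneme genes, was higher in GTML tumors. It stood at 0.843, 2.2 and 6.32 CPM in GMYC tumors and at 1.14, 8.45 and 23.1 CPM in GTML tumors. GTML tumor 3 was the highest and GTML tumor 2 the lowest of its model, and 5 of 8 GTML tumors lay above every GMYC tumor. The log2 fold change was 1.81 (SE 0.591, adjusted p = 0.0401 by edgeR), a fitted change of 3.51-fold. The call was close to the threshold. It was lost in 10 of the 14 fits that left out 1 tumor, all but those without GMYC tumor 4 and GTML tumors 2, 4 and 7, with log2 fold changes between 1.48 and 2.27 and adjusted p between 0.0116 and 0.0884. It was also lost with limma-voom (log2 fold change 1.61, adjusted p = 0.0855), with the small nucleolar RNA side as a term (1.77, adjusted p = 0.0929) and with Y-linked counts as a covariate (1.33, adjusted p = 0.195), whereas DESeq2 gave 1.85 (adjusted p = 0.0079). The log2 fold change was 1.40 where the small nucleolar RNA share was high (4 GMYC and 2 GTML tumors, adjusted p = 0.581) and 2.12 where it was low (2 GMYC and 6 GTML tumors, adjusted p = 0.0888, both by edgeR). Of all genes tested within these sides, 0.0106% passed where the share was high and 13.3% where it was low. Among the genes most like Foxj1 over the 14 tumors was Cabp5 (r = 0.928), which encodes a calcium-binding protein of the retina.

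The RFX factors differed among themselves. Rfx1 was at 30.5, 38 and 51.4 CPM in GMYC tumors and at 53.6, 71.8 and 122 CPM in GTML tumors, so that every GTML tumor lay above every GMYC tumor, as for 2.14% of all genes tested. GTML tumors 5 and 7 were the highest and GTML tumor 2 the lowest of its model. Rfx1 changed by 1.02 on the log2 scale (SE 0.206, adjusted p = 0.0065 by edgeR), a fitted change of 2.02-fold. It passed without any 1 tumor, with log2 fold changes between 0.92 and 1.10 and adjusted p between 0.00242 and 0.0197. Within the small nucleolar RNA sides the change was 0.67 (high share, adjusted p = 0.327) and 1.08 (low share, adjusted p = 0.0574, both by edgeR). Of all genes tested there, 0.0106% passed where the share was high and 13.3% where it was low. Among the genes most like Rfx1 were Fbrs (r = 0.949) and Rbbp8nl (r = 0.939).

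Rfx2, which acts with Foxj1 on motile cilium genes, was at 1.86, 3.38 and 5.22 CPM in GMYC tumors and at 3.7, 5.71 and 10.8 CPM in GTML tumors. The models overlapped in 2 GTML tumors, 1 and 4. The log2 fold change of 0.90 (SE 0.308) passed narrowly (adjusted p = 0.0487 by edgeR), and leaving out 1 tumor ended the call in 10 of 14 fits, all but those without GMYC tumors 4 and 6 and GTML tumors 1 and 4, with adjusted p between 0.0318 and 0.101. Rfx3, which serves primary and motile cilia alike, was at 135, 186 and 252 CPM in GMYC tumors and at 124, 163 and 203 CPM in GTML tumors. These ranges overlapped, and the log2 fold change of -0.20 (SE 0.131) did not pass (adjusted p = 0.262 by edgeR). Rfx4, a factor of neural development, was at 0.14, 2.46 and 3.29 CPM in GMYC and at 0.812, 2.14 and 4.48 CPM in GTML tumors, with no call (log2 fold change 0.23, SE 0.535, adjusted p = 0.772 by edgeR). For the levels of Rfx3 the most alike gene was Fam53c (r = 0.835), for Rfx4 it was Gabbr2 (r = 0.854), and for Rfx2 it was Vmn2r87 (r = 0.906).

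**Figure D2:**
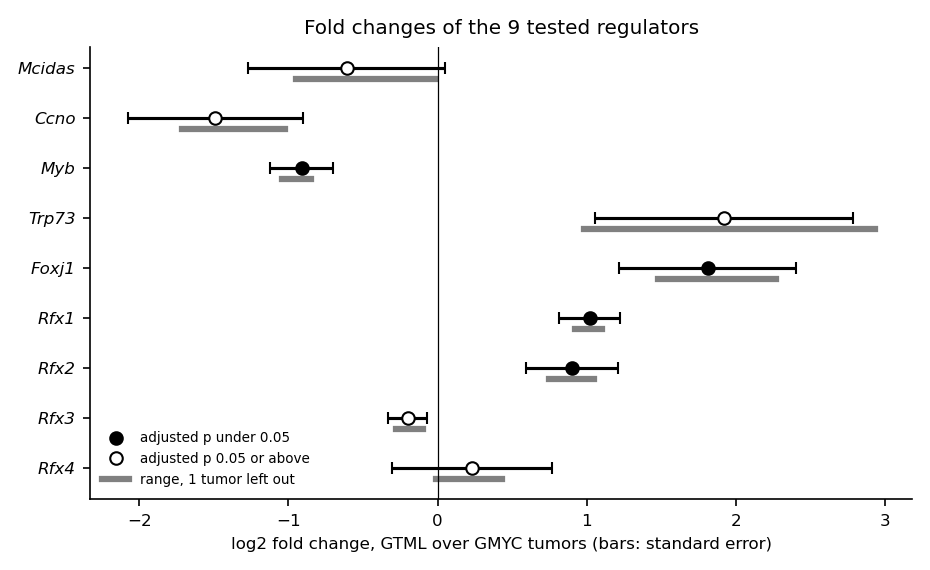
Log2 fold change (GTML over GMYC tumors, points) with its standard error (black bars) for the 9 regulators tested, filled where the adjusted p was under 0.05, with the range over 14 fits that each left out 1 tumor (grey). Rfx1 and Myb have narrow ranges, and the range of Trp73 reaches from 0.98 to 2.93.

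The relatives of these factors outside the group were described from a list of 13 genes, of which 11 could be tested. Rfx8, Foxj2, Rfxap and Rfxank were higher in GTML tumors and none was lower (36.4% of those tested, against 21.2% of all genes). Rfx8, a little-studied RFX gene, went from 0 to 0.86 CPM in GMYC tumors to 1.27 to 12.5 CPM in GTML tumors, with no overlap (log2 fold change 3.73, SE 0.617, adjusted p = 0.00279 by edgeR). Foxj2 stood at 5.78 to 17.7 CPM against 22.4 to 35.9 CPM, also with no overlap (log2 fold change 1.17, SE 0.234, adjusted p = 0.00626 by edgeR). Of all genes tested, 2.14% had every GTML tumor above every GMYC tumor. Rfxap and Rfxank, which join Rfx5 in a complex that acts on MHC class II genes, changed by 1.58 and 0.56 on the log2 scale (adjusted p = 0.0209 and 0.0259, by edgeR), and Rfxap reached 47.9 CPM in GTML tumor 2. Rfx5 itself and Rfx7 gave log2 fold changes of -0.10 and 0.26 (adjusted p = 0.76 and 0.31).

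Of the 7 partners of multicilin, all were tested and 2 passed (28.6%, near the 21.2% of all genes). Gmnn (geminin), which binds and restrains multicilin and the replication factor Cdt1, was at 34.3 to 68.6 CPM in GMYC and 23.6 to 36.7 CPM in GTML tumors and was lower in GTML tumors (log2 fold change -0.69, SE 0.163, adjusted p = 0.0111 by edgeR). Rbl2, the pocket protein p130, was higher at 75.6 to 108 CPM against 33.6 to 74.4 CPM (log2 fold change 0.60, SE 0.165, adjusted p = 0.0206). The E2F factors through which multicilin acts gave no call, with log2 fold changes of 0.32 for E2f4 (adjusted p = 0.2) and 0.15 for E2f5 (adjusted p = 0.548). Of 15 tested genes for centriole amplification, Deup1 rose and Cep57 fell (13.3%, against 21.2% of all genes), and the median log2 fold change was 0.02. Deup1, which builds the structures on which new centrioles form in multiciliated cells, had 1 to 10 reads in GMYC and 9 to 18 reads in GTML tumors. In CPM it was at 0.141 to 1.4 against 1.53 to 3.87, with no overlap, as for 2.14% of all genes tested. Its log2 fold change was 1.91 (SE 0.435, adjusted p = 0.00979 by edgeR). Plk4, the kinase that starts every new centriole, had a log2 fold change of 0.01 (SE 0.217, adjusted p = 0.973).

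The genes of the motile axoneme include the targets of Foxj1 and the RFX factors. Of 75 listed genes 70 were tested, of which 30 were higher in GTML tumors and 1 was lower (44.3%, against 21.2% of all genes). The log2 fold change was positive for 66 of them, passed or not, and the median log2 fold change was 1.33 against 0.036. Genes could enter the test through GTML tumors alone, with a CPM above 1 in 3 of them. Such genes with few reads in GMYC tumors lean toward a positive change, so the direction count and the median are a description. Cfap53, Hydin and Ak7 had at most 9 reads in any GMYC tumor. Cfap53 rose from 0.538 to 1.29 CPM in GMYC tumors to 3.41 to 8.64 CPM in GTML tumors (log2 fold change 2.63, SE 0.291, adjusted p = 0.000319 by edgeR). Hydin, of the central pair of the axoneme, rose by 3.57 on the log2 scale (SE 0.613, adjusted p = 0.00333), Ak7 by 2.20 (0.00305) and Odad1, of the dynein docking complex, by 1.90 (0.00355). Dnai1, an intermediate chain of the outer dynein arm, was the exception and fell by 1.83 (SE 0.343, adjusted p = 0.00477), from 46.1 to 114 CPM in GMYC tumors to 6.33 to 40.3 CPM in GTML tumors. Every GTML tumor lay below every GMYC tumor for Dnai1, as for 2.48% of all genes tested and for none of the regulators. The 31 calls became 13 with the small nucleolar RNA term and 12 with the Y-linked covariate. Of the 60 listed genes with a RefSeq window before the start, 22 held the searched part of the X-box. Its letters were in 23 of 67 windows (34.3%, against 6.47% of all windows). They were also in 4 of 17 windows of centriole amplification genes (23.5%) and in 2 of 25 windows of ciliary transport genes (8.0%). Genes of ciliary transport, which primary cilia also need, gave 2 higher and 1 lower of 28 (10.7%, against 21.2% of all genes), with a median log2 fold change of 0.17. Dync2i1 rose by 0.66 and Ift122 by 0.48, and Arl6 fell by 0.97 on the log2 scale (adjusted p = 0.0222, 0.0371 and 0.00366, by edgeR).

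**Figure D3:**
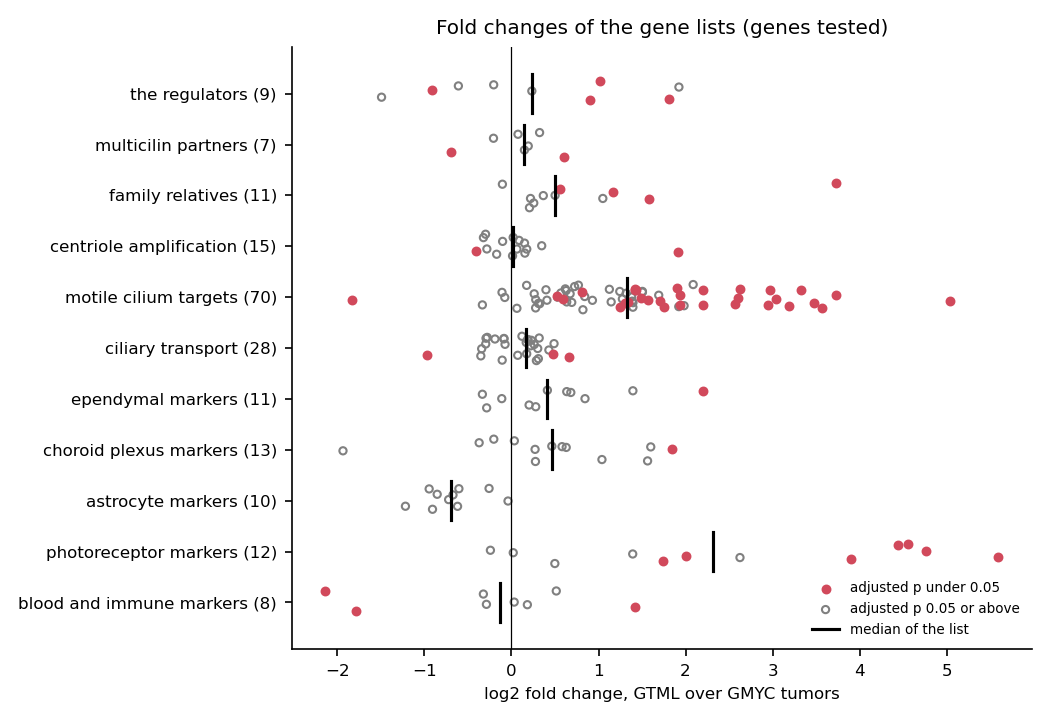
Log2 fold change (GTML over GMYC tumors) of every tested gene in each list, with the number tested in brackets, filled where the adjusted p was under 0.05, and the median of each list as a black bar. Genes of the motile cilium lie mostly to the right with a median of 1.33, whereas centriole amplification and ciliary transport lie near 0.

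Whether each regulator went with these targets from tumor to tumor was asked with a score, the mean log2 CPM of the 70 tested axoneme genes. The score was 1.43 to 2.08 in GMYC tumors and 1.55 to 3.90 in GTML tumors. GTML tumor 2 was the only GTML tumor within the range of the GMYC tumors, so the relation is given within each model. In GTML tumors the score went with Foxj1 (r = 0.88, exact p = 0.00439, adjusted over 9 regulators 0.0395), although the rank correlation did not pass after adjustment (rank correlation 0.738, exact p = 0.0458, adjusted 0.412). Without GTML tumors 2 and 4, the farthest from the median of Foxj1, r was 0.665. GTML tumor 3, the highest for both Foxj1 and the score, was still included in that value. The relation within GTML tumors without GTML tumor 3 was not tested. In GMYC tumors the same relation was not seen (r = 0.154, exact p = 0.767, adjusted 0.863, and rank correlation 0.086, exact p = 0.919, adjusted 0.919). These were 6 tumors with 6 to 47 reads of Foxj1 and a narrow range of the score, so a relation could be missed. Whether the relation differs between the models was not tested. Mcidas and Ccno gave r of 0.632 and 0.711 in GMYC tumors and 0.503 and 0.55 in GTML tumors, and no regulator other than Foxj1 passed in either model.

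**Figure D4:**
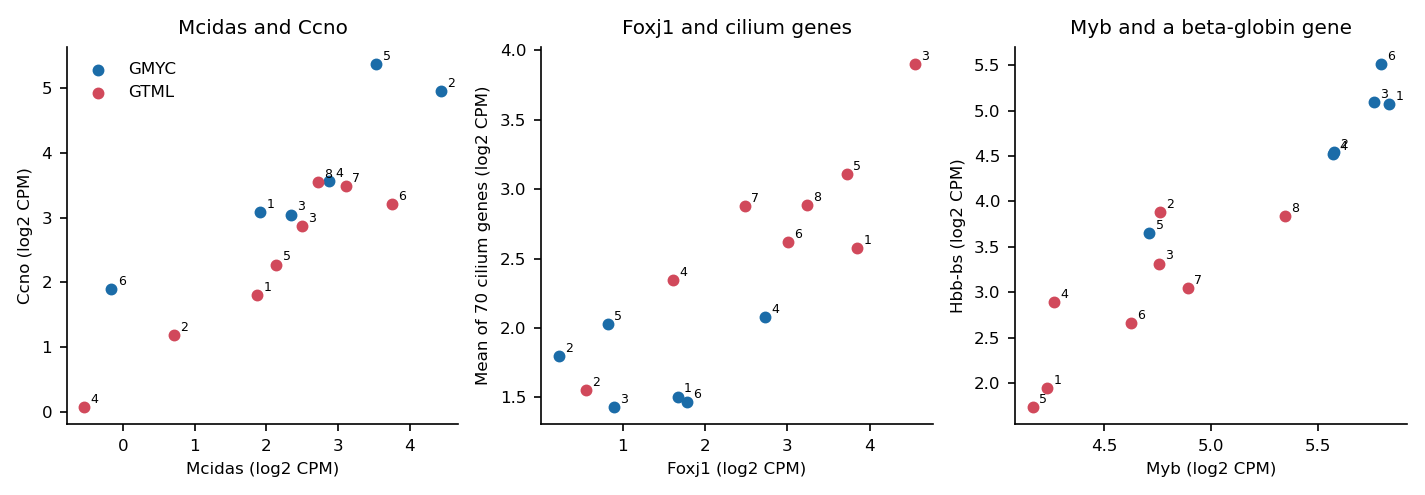
Levels in 14 tumors (log2 CPM), numbered by tumor within each model: Ccno against Mcidas, the mean of 70 motile cilium genes against Foxj1, and the globin gene Hbb-bs against Myb. Mcidas and Ccno rise together in both models (r = 0.881 over all tumors), and GTML tumor 3 is the highest and GTML tumor 2 the lowest GTML tumor for Foxj1 and for the cilium genes.

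Markers of the cells that normally carry motile cilia were at mixed levels, and so were their defining genes, with most low and Kcnj13 read in every tumor. The ependymal genes Tmem212 and Ccdc153 had at most 2 reads in any tumor. Of 17 ependymal markers 11 were tested and only Ak7, which is also on the axoneme list, was called (9.09%, against 21.2% of all genes). Summed over the list, ependymal markers were at 31.5 to 51.4 CPM in GMYC and 41.7 to 64.1 CPM in GTML tumors. Ttr and Folr1, defining markers of the choroid plexus, were at most 1.68 and 0.91 CPM. Slc4a5 was the only called gene of 13 tested choroid plexus markers (7.69%, against 21.2% of all genes). It had a log2 fold change of 1.85 (adjusted p = 0.0113 by edgeR) and reached 129 CPM. Other listed markers were clearly read, among them Kcne2 at up to 38.5 CPM, Tppp3 at 33.8, Tm4sf1 at 31.4 and Aqp1 at 21.4. That list summed to 319 to 441 CPM in GMYC and 298 to 515 CPM in GTML tumors, with Otx2 as its largest entry. Kl, also a defining marker of the choroid plexus, was at 0.143 to 1.98 CPM in GMYC and 0.649 to 2.8 CPM in GTML tumors. Kcnj13, another, was at 3.36 to 6.18 CPM in GMYC and 4.01 to 10.2 CPM in GTML tumors. Kl and Kcnj13 gave log2 fold changes of 0.27 and 0.58 (adjusted p = 0.692 and 0.122 by edgeR). None of the 10 astrocyte markers passed (against 21.2% of all genes), although all had negative log2 fold changes (median -0.70). Gfap was at -0.85 (adjusted p = 0.221) and Aqp4 at -1.22 (adjusted p = 0.0975, both by edgeR). The astrocyte markers summed to 824 to 1500 CPM in GMYC and 555 to 1020 CPM in GTML tumors.

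Photoreceptors carry a modified cilium. Of 12 photoreceptor markers, 7 were higher in GTML tumors (58.3% called, against 21.2% of all genes), and the median log2 fold change was 2.31. Their summed level was 574 to 761 CPM in GMYC and 212 to 2190 CPM in GTML tumors, lowest in GTML tumor 2 and highest in GTML tumor 3, which were also the lowest (575 CPM) and the highest (2290 CPM) of all tumors for the summed axoneme genes. The other GTML tumors did not keep the same order in both sums, as in GTML tumor 4 (943 CPM of photoreceptor and 795 CPM of axoneme genes) and GTML tumor 7 (787 and 1150 CPM). Gnat1 ranged from 0 to 1.54 CPM in GMYC and from 0.487 to 121 CPM in GTML tumors (log2 fold change 5.59, SE 1.35, adjusted p = 0.0121 by edgeR). It had at most 11 reads in any GMYC tumor, and photoreceptor markers too could enter the test through GTML tumors alone. Sag rose by 1.74 and Rcvrn by 4.76 on the log2 scale. Crx, the master factor of photoreceptors, was at 344 to 428 CPM in GMYC and 97.4 to 403 CPM in GTML tumors (log2 fold change -0.24, adjusted p = 0.424). The 7 calls became 1 with limma-voom and 0 with the small nucleolar RNA term or the Y-linked covariate. The part of photoreceptor-like expression in the levels of Foxj1 and the axoneme genes was not tested.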

How the data were processed

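RNA of 6 GMYC and 8 GTML tumor biopsies was sequenced, and the authors deposited whole-number counts per gene, without normalization. Per the paper's methods and the labels, reads were aligned to mouse mm9 with STAR and Bowtie2 and counted with featureCounts of Subread on GENCODE annotation. In addition, 18 count columns with names found in no label were left out. Symbols and exon lengths came from a GRCm38 annotation matched by Ensembl identifier (32620 of 37310 genes), and gene coordinates are not given, since the builds differ. Promoter windows are RefSeq's, on GRCm38.p6.

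Genes that exceeded a CPM of 1 in 3 or more tumors entered the test with edgeR 4.0.16 in R 4.3.3 (TMM, quasi-likelihood test, Benjamini-Hochberg adjustment, called at an adjusted p under 0.05), with SE taken as the log2 fold change over the root of the F statistic. Log2 CPM used a prior count of 2. The alternatives were limma-voom (limma 3.58.1), DESeq2 1.42.0, library size without TMM, other count filters, the replicate number as a block, terms for small nucleolar RNAs (split at 0.3% of counts) and Y-linked genes, and leaving out each tumor, and, added after the data were seen, leaving out GTML tumors 2 and 3 together. Correlations were tested over all orders of the tumors within a model and over 100000 random orders otherwise (Python 3.11.15, numpy 2.4.6, scipy 1.17.1), and figures were drawn with matplotlib 3.10.9. The code was tested on simulated counts.

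The members and gene lists were chosen with earlier results of these data known. Named were all members, up to 4 called genes per list and direction with the smallest p, genes and markers listed beforehand and the 3 protein-coding genes most like each tested member. Some of these genes are not reported here. Plk4, Otx2, Gli1, Alas2, Elane, Mpo and the remaining values of listed genes were added after their values were seen. Counts of any pair of tumors of a model differed beyond sampling noise (lowest chi-square over degrees of freedom 5.67). Total counts of 4602294 to 7279811 per tumor limit the precision of genes with few reads, and intervals from counts cover counting error only.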

Additional observations from a re-analysis of the deposited data

Results flagged for a closer look

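Of 20 sets of values, each of the 10 regulators in each model, 3 held a tumor far from the others (its gap to the nearest tumor, as a share of the range of its model, was above Dixon's critical value). Chance gives about 1 in 20 for normally distributed values. This rate need not hold for genes with few reads, such as Trp73 with 0 to 17 reads in GMYC and 2 to 73 in GTML tumors. Myb was at 25.9 CPM in GMYC tumor 5 and next lowest at 47.2 CPM, a gap of 0.692 of the range. Trp73 was at 2.6 CPM in GMYC tumor 3 and next highest at 0.716 CPM, a gap of 0.724. Trp73 was also at 11.9 CPM in GTML tumor 2 and next highest at 2.8 CPM, a gap of 0.784. GTML tumor 2 was at the same time the highest tumor for Gmnc (1.62 CPM) and the lowest GTML tumor for Foxj1 (1.14 CPM).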

How the results depend on the processing

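The 4 regulators called became 1 with the replicate block (Myb), 2 with the small nucleolar RNA term and 2 with the Y-linked covariate (Myb and Rfx1 in both), and 1 at the thresholds of the study (Rfx1). Leaving out 1 tumor left 2 to 4. The 4459 calls over all genes became 251, 2851, 1683 and 676 in the same order, and 2617 (without GMYC tumor 3) to 6430 (without GTML tumor 2). The share of calls that were higher in GTML tumors was 54.2%, against 65.3% with the block and 67% with the Y-linked covariate. Without a filter on low counts the median log2 fold change of all genes was 0.176. With GTML tumors 2 and 3 left out together, 3 regulators (Foxj1, Myb and Rfx1) and 5767 genes were called. Leaving out 1 tumor gave log2 fold changes of Rfx4 between -0.01 (without GMYC tumor 2) and 0.43. Gmnc kept its direction and p under 0.05 with a prior count of 0.5 (difference 1.94, exact permutation p = 0.016). Over all 14 tumors, where the models lie mostly apart, 3 regulators passed against the axoneme score by Pearson r, whereas 1 passed within GTML tumors, 0 within GMYC tumors, 0 where the small nucleolar RNA share was high and 0 where it was low. By rank, 4 passed over all tumors, 0 within GTML tumors, and Foxj1 passed where the share was low (rank correlation 0.905, exact p = 0.00456, adjusted p = 0.041).

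The replicate numbers did not pair the tumors: the correlations of same-numbered tumors' deviations lay between -0.211 and 0.24, so the replicate block is given only as an alternative. Under it the adjusted p of Rfx1 was 0.0632, and 4 of the axoneme genes were called in place of 31. The cause of the changes with the covariates was not tested. Depth limits Gmnc, Trp73, Deup1 and other genes with few reads.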
